A study of Mus musculus with 3 samples.

Results

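The genes described here are 7 genes of the heme pathway and the red cell membrane, measured by how open their chromatin was in single nuclei of whole mouse embryos. The members were given as a list of symbols, *Alas2*, *Tfrc*, *Epor*, *Slc4a1*, *Epb42*, *Sptb* and *Ank1*, and all 7 were found among the 21593 protein-coding genes counted. Single-nucleus ATAC-seq (snATAC-seq) uses the transposase Tn5 to cut and tag accessible DNA, and each unique tagged fragment carries the barcode of its nucleus. The 3 libraries held 153 nuclei from E12.5, 970 from E13.5 and 756 from E15.5 (embryonic days) of wild-type (WT) C57BL/6JRj mice, for which the labels name no treatment or transgene, and each stage had 1 library from 3 to 5 frozen sections that matched the study's spatial maps. The sources used here do not say how many embryos a library holds, so a difference between stages cannot be told apart from a difference between libraries.

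Red cell precursors make heme, load iron, stop dividing and build a membrane that can bend through capillaries. The first step of heme synthesis in these cells is made by *Alas2*, iron enters through the transferrin receptor *Tfrc*, and survival depends on the erythropoietin receptor *Epor*. The membrane skeleton is a net of spectrin, of which *Sptb* is the beta chain, tied by ankyrin (*Ank1*) and protein 4.2 (*Epb42*) to the anion exchanger band 3 (*Slc4a1*). At these stages definitive red cells form mainly in the fetal liver, under the factors GATA1, TAL1 and KLF1.

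Nuclei were grouped by the cluster numbers that the authors deposited, and clusters 5 and 11 were set against all other clusters except 2 and 4, which are called the rest. Clusters 5 and 11 together held 11, 201 and 17 nuclei in stage order, of which 1, 35 and 7 were of cluster 11, and the rest held 72, 608 and 541. Of 20 erythroid markers that are no members, 19 were measured, and 18, 19 and 19 of them were over 1.5-fold higher in clusters 5 and 11 than in the rest. Cluster 11 at E15.5 had 11 of 19 raised and 6 at 0, in 7 nuclei. Among other lists, hepatocyte markers summed to 234, 187 and 201 CPM in clusters 5 and 11 and to 212, 244 and 199 CPM in the rest, with 3, 0 and 5 of 12 at 0, and macrophage markers to 236, 273 and 253 against 322, 315 and 275 CPM, with 3, 0 and 0 of 12 at 0. Megakaryocyte markers summed to 278 to 314 against 312 to 341 CPM over the libraries, endothelial markers to 797, 457 and 356 against 661, 692 and 643 CPM, so that they were higher at E12.5 and lower later, neuron markers to 339 to 436 against 626 to 708 CPM over the libraries, and mesenchyme markers to 204 to 333 against 506 to 525. The part of such cells or of free DNA in the results was not tested. Of the 11 nuclei of clusters 5 and 11 at E12.5, 2 shared at least 10% of their fragments with another barcode. Over all clusters 5, 32 and 138 nuclei did so in stage order. Among all nuclei of the 3 libraries, 1 barcode occurred in more than 1 library.

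Accessibility of a gene is the number of unique fragments over its body and the 2 kb upstream, as CPM, which is scaled to the total of fragments counted in genes of the same nuclei. The gene sums of clusters 5 and 11 rested on 397689, 9093425 and 438255 fragments in stage order, and those of the rest on 4157640, 29979973 and 22476680, so E13.5 carries most of the precision. All intervals are exact 95% intervals that cover counting error only. In this measure the 7 genes were all higher in clusters 5 and 11 than in the rest in each of the 3 libraries, from 1.87-fold to 10.7-fold, 2.98-fold to 8.59-fold and 2.52-fold to 12.9-fold in stage order, and every interval lay above 1. The median ratio over all genes was 1.02, 0.977 and 0.970 and the 95th percentile 2.82, 2.04 and 2.75, and *Ank1* at E12.5 and *Sptb* at E15.5 lay below the latter. These are sums over both clusters, and for *Sptb* and *Ank1* at E15.5 the 7 nuclei of cluster 11 alone were not above the rest. Cluster 5 or cluster 11 had the highest value in 21 of 21 pairs of gene and library, among clusters with at least 5 nuclei other than 2 and 4. The left-out cluster 4 had 1009.8 CPM (598 to 1596) of *Ank1* at E12.5, on 18 fragments in 40 nuclei, above the 359.7 CPM of cluster 5. Of the clusters under 5 nuclei in the rest, cluster 10 at E12.5 had 302 CPM (199 to 440) of *Slc4a1* in 2 nuclei, above the 141 CPM of cluster 5.

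**Figure D1:**
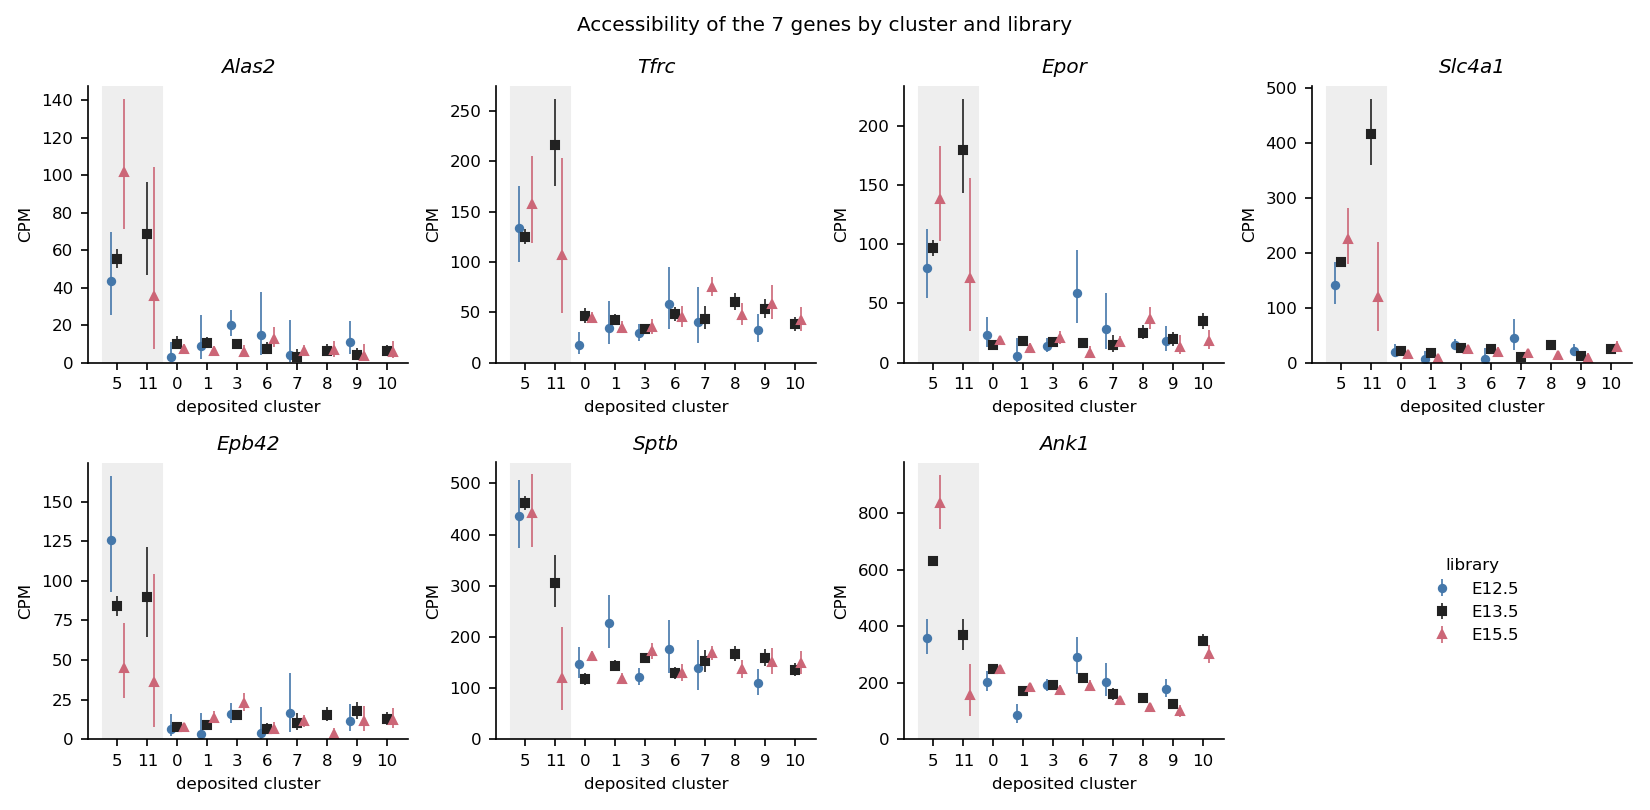
Accessibility (CPM, vertical axis) of each gene in every deposited cluster with at least 5 nuclei except clusters 2 and 4 (horizontal axis). The libraries are E12.5, E13.5 and E15.5. Points are sums over nuclei, bars are exact Poisson 95% intervals, and the grey band marks clusters 5 and 11, which hold the highest point of each library in every panel.

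For a test over the libraries, fragments were summed into 2 sums per library and compared with edgeR's quasi-likelihood test, with the library as a block and Benjamini-Hochberg adjustment over 19539 genes. The clusters were made from these same nuclei, so these p-values describe how separate the clusters are and are no independent evidence. All 7 members passed an adjusted p of 0.05 and were higher, against 9.06% of all genes tested that were higher and 12.4% that were lower. Without the E13.5 library the count of genes called was 527 in place of 4191, and *Ank1* was the 1 member that no longer passed.

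*Alas2* encodes the erythroid 5-aminolevulinate synthase, the entry enzyme of heme synthesis (ENSMUSG00000025270.13, chrX:150547375-150570638 in mm10, + strand). Its accessibility in clusters 5 and 11 was 45.3, 56.1 and 89.0 CPM in stage order, on 18, 510 and 39 fragments. In the rest it was 13.7, 8.27 and 6.90 CPM. The ratio was 3.30 (95% interval 1.83 to 5.69), 6.78 (5.81 to 7.92) and 12.9 (8.84 to 18.4). The first was 5.41 with read pairs, duplicates included, and 5.55 with the mean over nuclei. In the fit *Alas2* was higher by a log2 fold change of 2.76 ± 0.36 (SE, adjusted p = 0.00022). The gene *Apex2* overlaps it, and fragments of the overlap cannot be assigned to either.

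Of the 3 windows compared for *Alas2*, the most open lay in an intron in each library, not at its start. The 300-bp window with the most Tn5 insertions in clusters 5 and 11 of E13.5, the library that chose the windows, was in intron 1, 2.45 kb from the gene start. On the same CPM scale it held 24.6 CPM of insertions there against 0.434 in the rest, and in the libraries that did not choose it 5.03 against 1.44 at E12.5 and 29.7 against 0.178 at E15.5. Its ratio at E12.5 was 3.48 (0.344 to 19.5), on 2 insertions, below the window at the start with 5 insertions or 12.6 CPM. The next was in intron 8, 17.45 kb from the start, with 20.1 CPM at E12.5, and had ratios of 41.8 (8.35 to 404), 31.2 (18.9 to 54.9) and 183 (77.0 to 502) in stage order. The promoter window (1000 bp upstream to 100 bp downstream of the start) had only 2, 66 and 3 fragments in clusters 5 and 11. Both intron windows are shown because they were the most open of the gene at E13.5. They lie at chrX:150549675-150549974 and chrX:150564675-150564974 (GRCm38.p6, + strand), and capitals mark GATA matches, which are the letters AGATAA, the same with G as the last base, TGATAA, and that with G as the last base, each on either strand. Both windows hold 2.
*Alas2* intron 1: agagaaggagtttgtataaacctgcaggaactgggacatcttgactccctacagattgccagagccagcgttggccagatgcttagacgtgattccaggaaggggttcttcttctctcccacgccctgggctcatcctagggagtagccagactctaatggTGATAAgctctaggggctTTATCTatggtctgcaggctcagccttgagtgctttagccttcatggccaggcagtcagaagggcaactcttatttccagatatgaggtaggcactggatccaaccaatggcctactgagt
*Alas2* intron 8: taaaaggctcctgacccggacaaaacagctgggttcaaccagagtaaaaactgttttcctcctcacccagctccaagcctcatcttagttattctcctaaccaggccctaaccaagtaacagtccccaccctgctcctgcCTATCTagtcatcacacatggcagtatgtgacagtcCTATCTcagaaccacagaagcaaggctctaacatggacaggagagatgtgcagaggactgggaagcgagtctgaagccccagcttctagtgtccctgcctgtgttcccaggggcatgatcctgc

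*Tfrc* encodes the transferrin receptor, which takes iron-loaded transferrin into the cell (ENSMUSG00000022797.16, chr16:32608920-32632794, + strand). Dividing cells of most kinds use it, and in the rest it was the most open of the 7 promoters. Its accessibility was 143, 129.5 and 148 CPM in clusters 5 and 11 and 30.5, 43.4 and 47.2 CPM in the rest, in stage order. The ratios were 4.69 (3.37 to 6.46), 2.98 (2.75 to 3.23) and 3.14 (2.41 to 4.04), the first being 7.37 without the promoter window. In the fit it was higher by 1.76 ± 0.22 on the log2 scale (SE, adjusted p = 0.00015). At the promoter the values were 35.2, 54.5 and 63.9 CPM against 15.9, 20.6 and 25.9, and the log2 fold change was 0.96 ± 0.18 (SE, adjusted p = 3.7e-06), the smallest of the 6 promoters that were higher. The promoter ratios were 2.22, 2.65 and 2.46 in stage order. Over the promoters with a ratio the median was 1.44, 1.03 and 1.47, and the 95th percentile 5.23, 2.47 and 4.40. At E12.5, among clusters with at least 5 nuclei, the promoter of *Tfrc* was highest in cluster 6, with 44.0 CPM (22.7 to 76.9). Cluster 5 had 25.7 (12.3 to 47.3), so that their order was not resolved. The 1 nucleus of cluster 11 had 472 CPM (129 to 1208), on 4 fragments. The 250 bases before its start, chr16:32608670-32608919 (GRCm38.p6, + strand), are shown as the promoter that stood open in both groups. They hold no GATA match and 3 matches to CCNCNCCC, a CACCC-type box of the kind bound by KLF1, counted on both strands. Of 32851 RefSeq promoters cut to 250 bases, 26.5% hold a GATA match and 45.9% a CCNCNCCC match.
*Tfrc* before its start: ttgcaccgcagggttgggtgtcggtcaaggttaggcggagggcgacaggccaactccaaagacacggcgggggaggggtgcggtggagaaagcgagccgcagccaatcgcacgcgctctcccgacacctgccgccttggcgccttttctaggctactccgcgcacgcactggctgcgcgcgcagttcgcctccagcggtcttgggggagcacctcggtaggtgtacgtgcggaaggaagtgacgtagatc

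*Epor* encodes the receptor for erythropoietin, the hormone that keeps red cell precursors alive (ENSMUSG00000006235.6, chr9:21958897-21963506, - strand). It had 85.5, 101 and 125.5 CPM in clusters 5 and 11, and 19.7, 19.7 and 18.1 CPM in the rest. The ratios were 4.33 (2.82 to 6.54), 5.12 (4.61 to 5.69) and 6.93 (5.13 to 9.20), and the log2 fold change was 2.40 ± 0.24 (SE, adjusted p = 5.2e-05). At E12.5, among clusters with at least 5 nuclei, cluster 6 came next to cluster 5. They had 58.7 CPM (33.5 to 95.3) and 79.6 (54.1 to 113), and the 2 intervals overlapped. The promoter was higher by 2.76 ± 0.35 on the log2 scale (SE, adjusted p = 4.7e-13). The most open window lay 0.91 kb inside the gene at intron 1, with ratios of 22.4, 10.9 and 14.4 in stage order, and another, 7.61 kb from the start within the neighbouring gene *Swsap1*, had 1.44 (0.718 to 2.65), 1.84 and 1.87. The 250 bases before the start, chr9:21963507-21963756 (GRCm38.p6, - strand), are shown for their single GATA match, and they also hold 4 CCNCNCCC matches. The windows at intron 1 and within *Swsap1* hold 0 GATA matches.
*Epor* before its start: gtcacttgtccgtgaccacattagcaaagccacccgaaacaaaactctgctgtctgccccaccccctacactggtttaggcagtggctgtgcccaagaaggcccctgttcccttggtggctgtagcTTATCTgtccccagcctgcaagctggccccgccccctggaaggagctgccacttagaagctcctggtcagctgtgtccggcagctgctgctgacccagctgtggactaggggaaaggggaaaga

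*Slc4a1* encodes band 3, the chloride-bicarbonate exchanger and main anchor of the red cell membrane (ENSMUSG00000006574.15, chr11:102348824-102366203, - strand). It had 151, 195 and 205 CPM in clusters 5 and 11 and 30.8, 22.7 and 16.5 CPM in the rest. The ratios were 4.90 (3.54 to 6.71), 8.59 (7.86 to 9.40) and 12.48 (9.80 to 15.7), and its log2 fold change of 3.01 ± 0.26 (SE, adjusted p = 3.0e-05) was the largest of the 7 for whole genes. Where each cluster and library entered as a sum of its own, the value was 3.77. At E12.5 the 2 nuclei of cluster 10 gave 27 of the 128 fragments of the rest, and without cluster 10, an alternative added after seeing the data, the ratios were 6.08 (4.34 to 8.45), 8.71 and 13.1. With the mean over nuclei in place of the sum they were 9.17 and 14.0 in the first 2 libraries.

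The window at the annotated start of *Slc4a1* gave a log2 fold change of 2.47 ± 0.73 (SE, adjusted p = 0.0038) on 2, 77 and 3 fragments in clusters 5 and 11. The start of its coding transcript *Slc4a1*-201 lies 0.923 kb further in, and the same window at that start held 16, 461 and 30 fragments, or 40.2, 50.7 and 68.5 CPM against 3.37, 1.70 and 1.25 CPM in the rest. There the log2 fold change was 4.54 ± 0.30 (SE, adjusted p = 1.2e-48, over 17868 windows at every annotated start). The windows at every start were added after seeing the data. Of them, 12.4% were higher and 21.5% lower in clusters 5 and 11. In intron 1, 2.38 kb from the annotated gene start, a further window had ratios of 11.3 (4.91 to 26.0), 42.8 (31.3 to 59.8) and 87.9 (50.0 to 159). The 250 bases before the coding transcript, chr11:102365281-102365530, and 269 bases of intron 1, chr11:102363705-102363973 (GRCm38.p6, - strand), are shown because 2 of the 3 most open sites of the gene lie there. The other, 9.17 kb upstream of the gene, had 55.3, 53.0 and 105 CPM of insertions, against 35.2, 61.4 and 82.1 in the intron window, and was the most open of the 3 at E15.5. In the rest it had 0, 3.04 and 1.91. The 2 stretches shown hold 1 and 2 GATA matches, and the window 9.17 kb upstream holds 0.
*Slc4a1* before its coding transcript: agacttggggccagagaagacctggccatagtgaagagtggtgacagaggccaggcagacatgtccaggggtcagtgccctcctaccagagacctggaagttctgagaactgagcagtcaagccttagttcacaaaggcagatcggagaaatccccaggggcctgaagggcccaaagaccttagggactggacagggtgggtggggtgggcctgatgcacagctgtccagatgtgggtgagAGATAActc
*Slc4a1* intron 1: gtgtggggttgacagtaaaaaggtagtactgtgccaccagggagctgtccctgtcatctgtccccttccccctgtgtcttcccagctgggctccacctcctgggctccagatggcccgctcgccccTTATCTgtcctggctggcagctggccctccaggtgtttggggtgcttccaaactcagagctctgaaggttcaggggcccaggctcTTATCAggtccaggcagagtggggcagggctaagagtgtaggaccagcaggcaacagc

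*Epb42* encodes protein 4.2, which links band 3 to ankyrin (ENSMUSG00000023216.13, chr2:121017891-121037072, - strand). It is a relative of the transglutaminases without enzyme activity. It had 128, 84.1 and 43.4 CPM in clusters 5 and 11, on 51, 765 and 19 fragments, and 12.03, 11.8 and 11.03 CPM in the rest. The ratios were 10.7 (7.08 to 16.1), 7.10 (6.26 to 8.08) and 3.93 (2.33 to 6.27), and the log2 fold change was 2.74 ± 0.30 (SE, adjusted p = 7.6e-05).

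The contrast of *Epb42* was wider at its start than over the whole gene. The promoter window held 32.7, 29.4 and 20.5 CPM in clusters 5 and 11 and 0.241, 0.634 and 0.400 CPM in the rest, on 1, 19 and 9 fragments of the rest. Without that window the ratios of the gene were still 8.11, 4.89 and 2.15. The most open site at E13.5 lay just beyond it, in a noncoding part of an exon 0.28 kb inside the gene, with 37.7, 45.7 and 29.7 CPM of insertions against 0.241, 0.167 and 0.934 in the rest. The promoter's log2 fold change of 5.32 ± 0.47 (SE, adjusted p = 7.4e-27) ranked 3 among the 14615 promoters tested, of which 11.98% were higher and 21.5% lower in clusters 5 and 11. In all, 6 of the 7 members had a higher promoter. Of the promoters called, 35.7% were higher, and with DESeq2 21.6% of 2275. In place of 4898 promoters called, there were 788 without E13.5 and 2991 without E15.5. Without E13.5 the promoters of *Sptb* and *Tfrc* no longer passed (adjusted p = 0.22 and 0.16), and those of *Alas2* and *Slc4a1* had too few fragments to be tested. The 250 bases before the start of *Epb42*, chr2:121037073-121037322 (GRCm38.p6, - strand), are shown as the promoter with the largest contrast of the 7, and hold 1 GATA match.
*Epb42* before its start: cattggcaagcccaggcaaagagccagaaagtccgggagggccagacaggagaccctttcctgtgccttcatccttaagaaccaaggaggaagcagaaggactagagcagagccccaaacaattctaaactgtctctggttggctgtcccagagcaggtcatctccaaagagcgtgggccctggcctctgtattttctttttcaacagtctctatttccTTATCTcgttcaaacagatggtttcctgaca

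*Sptb* encodes beta spectrin, the long filament of the membrane skeleton (ENSMUSG00000021061.15, chr12:76580488-76710547, - strand). Over its 130-kb body, where *Plekhg3* overlaps it, the level was 445, 453 and 381 CPM in clusters 5 and 11 and 135, 146 and 151 CPM in the rest. The ratios were 3.29 (2.76 to 3.90), 3.10 (2.97 to 3.24) and 2.52 (2.15 to 2.95). In the fit it was higher by 1.53 ± 0.21 on the log2 scale (SE, adjusted p = 0.00023). The annotated gene start gave a log2 fold change of 1.97 ± 0.44 (SE, adjusted p = 0.00011) in the count of every start. A further start, 0.524 kb inside, was more open, with 62.9, 52.0 and 63.9 CPM against 4.57, 5.87 and 8.23, and a log2 fold change of 2.82 ± 0.23 (SE, adjusted p = 2.7e-30).

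Inside the first intron of *Sptb*-201, 2 windows far from any start were nearly closed in the rest. The one 36.56 kb from the start had 45.3, 47.8 and 61.6 CPM of insertions in clusters 5 and 11 and 0.722, 0.534 and 0.534 in the rest, on 3, 16 and 12 insertions of the rest. The one at 39.76 kb had 42.7, 47.3 and 45.6 against 0, 0.934 and 0.578. Measured over the whole body the ratio of *Sptb* was about 3, and in these windows it was 62.7 (18.3 to 332), 89.6 (54.6 to 158) and 115 (56.5 to 250) for the first of them. The first window, chr12:76673838-76674137 (GRCm38.p6, - strand), is shown because its contrast was the widest of the 3 windows compared for *Sptb* at E13.5 and E15.5. It holds 3 GATA matches and 3 CCNCNCCC matches.
*Sptb* intron 1: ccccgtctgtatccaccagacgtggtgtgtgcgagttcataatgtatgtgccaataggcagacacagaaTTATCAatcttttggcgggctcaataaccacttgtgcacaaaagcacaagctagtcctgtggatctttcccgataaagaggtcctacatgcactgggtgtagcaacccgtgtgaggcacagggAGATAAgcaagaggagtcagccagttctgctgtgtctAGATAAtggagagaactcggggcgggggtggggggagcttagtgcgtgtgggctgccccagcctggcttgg

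*Ank1* encodes erythrocyte ankyrin, which ties spectrin to band 3 (ENSMUSG00000031543.18, chr8:22974844-23150497, + strand). Its body had 359.6, 617 and 705 CPM in clusters 5 and 11 and 192, 202 and 194 CPM in the rest. The ratios were 1.87 (1.56 to 2.24), 3.05 (2.94 to 3.17) and 3.64 (3.23 to 4.08), and the log2 fold change was 1.44 ± 0.23 (SE, adjusted p = 0.00078), the smallest of the 7. With the mean over nuclei the ratios were 2.91, 3.23 and 3.35. Without E13.5 it was 1.39 and the adjusted p 0.056. At E12.5 cluster 6, with 289.7 CPM (229 to 361), overlapped cluster 5, with 359.7 (303 to 424).

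At the annotated gene start *Ank1* went the other way. This promoter held 0, 25 and 1 fragments in clusters 5 and 11, or 0, 2.75 and 2.28 CPM, against 4.81, 5.77 and 6.72 CPM in the rest. The log2 fold change was -1.61 ± 0.58 (SE, adjusted p = 0.020), and *Ank1* was the 1 member of 7 with a lower promoter. The call rested on few fragments: the adjusted p was 0.074 without E12.5, 0.24 without E13.5, 0.18 without E15.5, 0.068 with cluster 5 alone and 0.081 in DESeq2, all with the same direction.

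The 4 annotated starts of *Ank1* differed in the clusters where they were most open. Start 1, the gene start, was highest in clusters 6 and 0 at E13.5, with 10.3 CPM (7.22 to 14.3) and 9.07 (6.24 to 12.7), and E15.5 had them first too, in the order 0 and 6, with 12.47 (9.96 to 15.4) and 11.7 (7.21 to 17.8), and the order within each pair was not resolved. Start 2, 60.255 kb further, had 22.6, 31.7 and 43.4 CPM in clusters 5 and 11 and 2.41, 2.20 and 2.05 CPM in the rest, with a log2 fold change of 3.54 ± 0.36 (SE, adjusted p = 2.4e-20). Start 3, at 83.431 kb, had 10.1, 8.91 and 9.13 CPM against 2.89, 3.002 and 4.14 CPM, and its log2 fold change of 1.14 ± 0.55 (SE, adjusted p = 0.090) did not pass. Start 4, at 164.19 kb had 0, 4.84 and 4.56 CPM against 0.962, 4.17 and 3.03 CPM (log2 fold change -0.12, adjusted p = 0.91). Within the rest it stood out in cluster 10, with 20.8 CPM (16.0 to 26.7) in 49 nuclei at E13.5 and 32.3 (23.0 to 43.9) in 24 nuclei at E15.5, while cluster 5 had 5.10 (3.71 to 6.85) and 5.64 (0.683 to 20.4). Among the clusters of the rest, cluster 10 was also highest for the whole body of *Ank1*, with 349 CPM (328 to 371) at E13.5 and 301 (271 to 333) at E15.5. The left-out cluster 4 had 359 CPM (191 to 614) and 361 (214 to 571) in these libraries. Cluster 2, also left out, had 352 CPM (312 to 396) and 232 (190 to 279). Where a left-out cluster was higher, its interval overlapped that of cluster 10. No test was made between single clusters at a start.

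**Figure D2:**
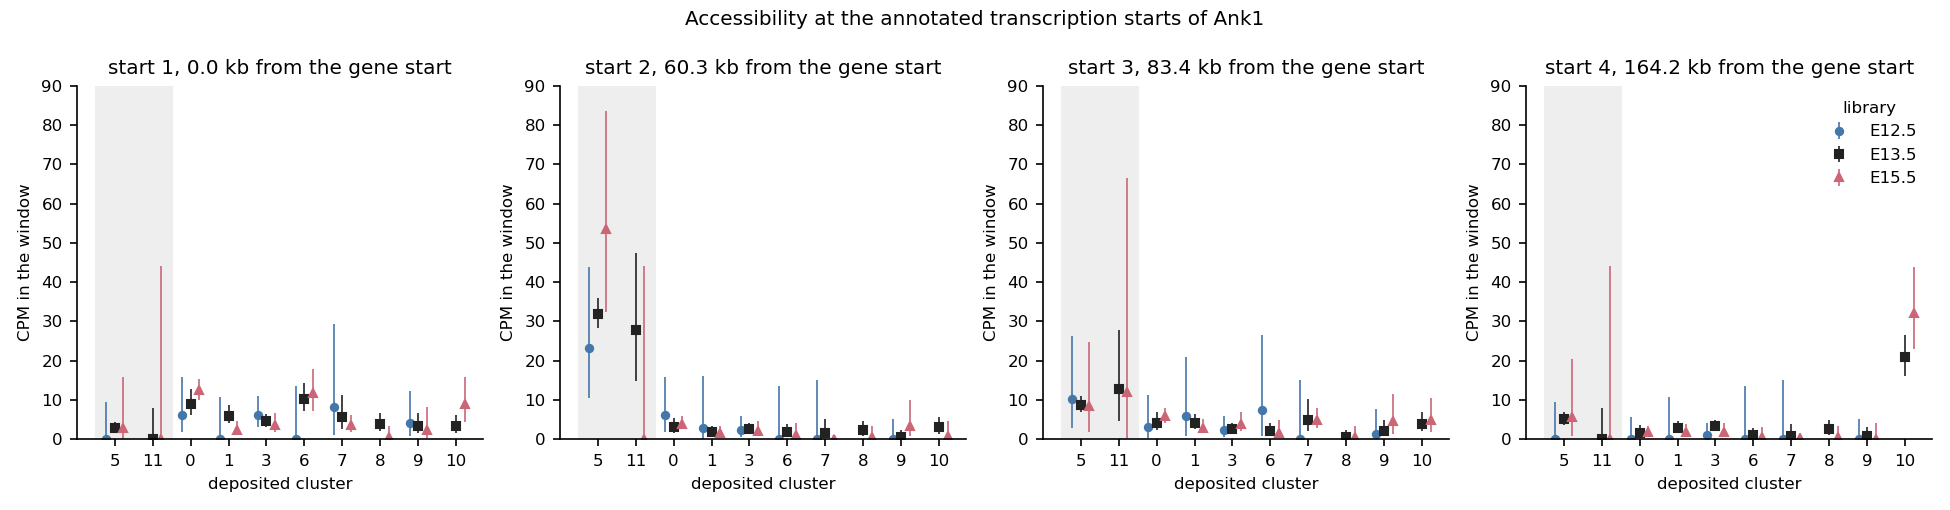
Accessibility (CPM in the window from 1000 bp upstream to 100 bp downstream, vertical axis) at the 4 annotated starts of *Ank1* in each deposited cluster with at least 5 nuclei except 2 and 4 (horizontal axis), in 3 libraries, with exact Poisson 95% intervals. Start 2 is highest in cluster 5 in each library, start 4 in cluster 10 at E13.5 and E15.5, where that cluster has over 5 nuclei, and start 1 in clusters 0 and 6 in the later 2 libraries.

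Of the 3 windows compared for *Ank1*, the most open at E12.5 and E13.5 was at no start. It lay 79.35 kb into the gene, in intron 1 of the longest transcript, and had 55.3, 57.5 and 52.5 CPM of insertions in clusters 5 and 11 against 0.962, 0.967 and 0.489 in the rest, or ratios of 57.5 (19.5 to 230), 59.5 (40.9 to 89.7) and 107 (50.2 to 244). At E15.5 the window at start 2 was more open, with 75.3 CPM. The window at chr8:23054044-23054343, the 250 bases before start 2 at chr8:23034849-23035098 and the 250 bases before start 1 at chr8:22974594-22974843 (GRCm38.p6, + strand) are shown to set the open intron site and start of clusters 5 and 11 beside the start that was lower there. They hold 3, 0 and 0 GATA matches, and the bases before start 1 hold 3 CCNCNCCC matches.
*Ank1* intron site: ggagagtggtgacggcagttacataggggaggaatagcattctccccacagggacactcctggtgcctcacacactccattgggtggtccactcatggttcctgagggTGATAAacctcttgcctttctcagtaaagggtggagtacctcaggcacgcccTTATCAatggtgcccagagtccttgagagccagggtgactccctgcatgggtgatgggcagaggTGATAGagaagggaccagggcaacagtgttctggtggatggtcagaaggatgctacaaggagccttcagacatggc
*Ank1* before start 2: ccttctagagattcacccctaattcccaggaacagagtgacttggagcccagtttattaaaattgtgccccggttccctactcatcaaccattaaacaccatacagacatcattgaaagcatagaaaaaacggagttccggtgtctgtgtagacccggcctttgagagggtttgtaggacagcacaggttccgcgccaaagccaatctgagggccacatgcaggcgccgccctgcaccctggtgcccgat
*Ank1* before start 1: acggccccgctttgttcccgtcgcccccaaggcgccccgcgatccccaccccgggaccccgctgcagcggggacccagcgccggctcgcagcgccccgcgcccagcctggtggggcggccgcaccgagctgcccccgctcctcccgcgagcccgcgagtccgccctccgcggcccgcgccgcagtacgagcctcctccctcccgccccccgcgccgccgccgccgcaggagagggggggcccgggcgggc

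**Figure D3:**
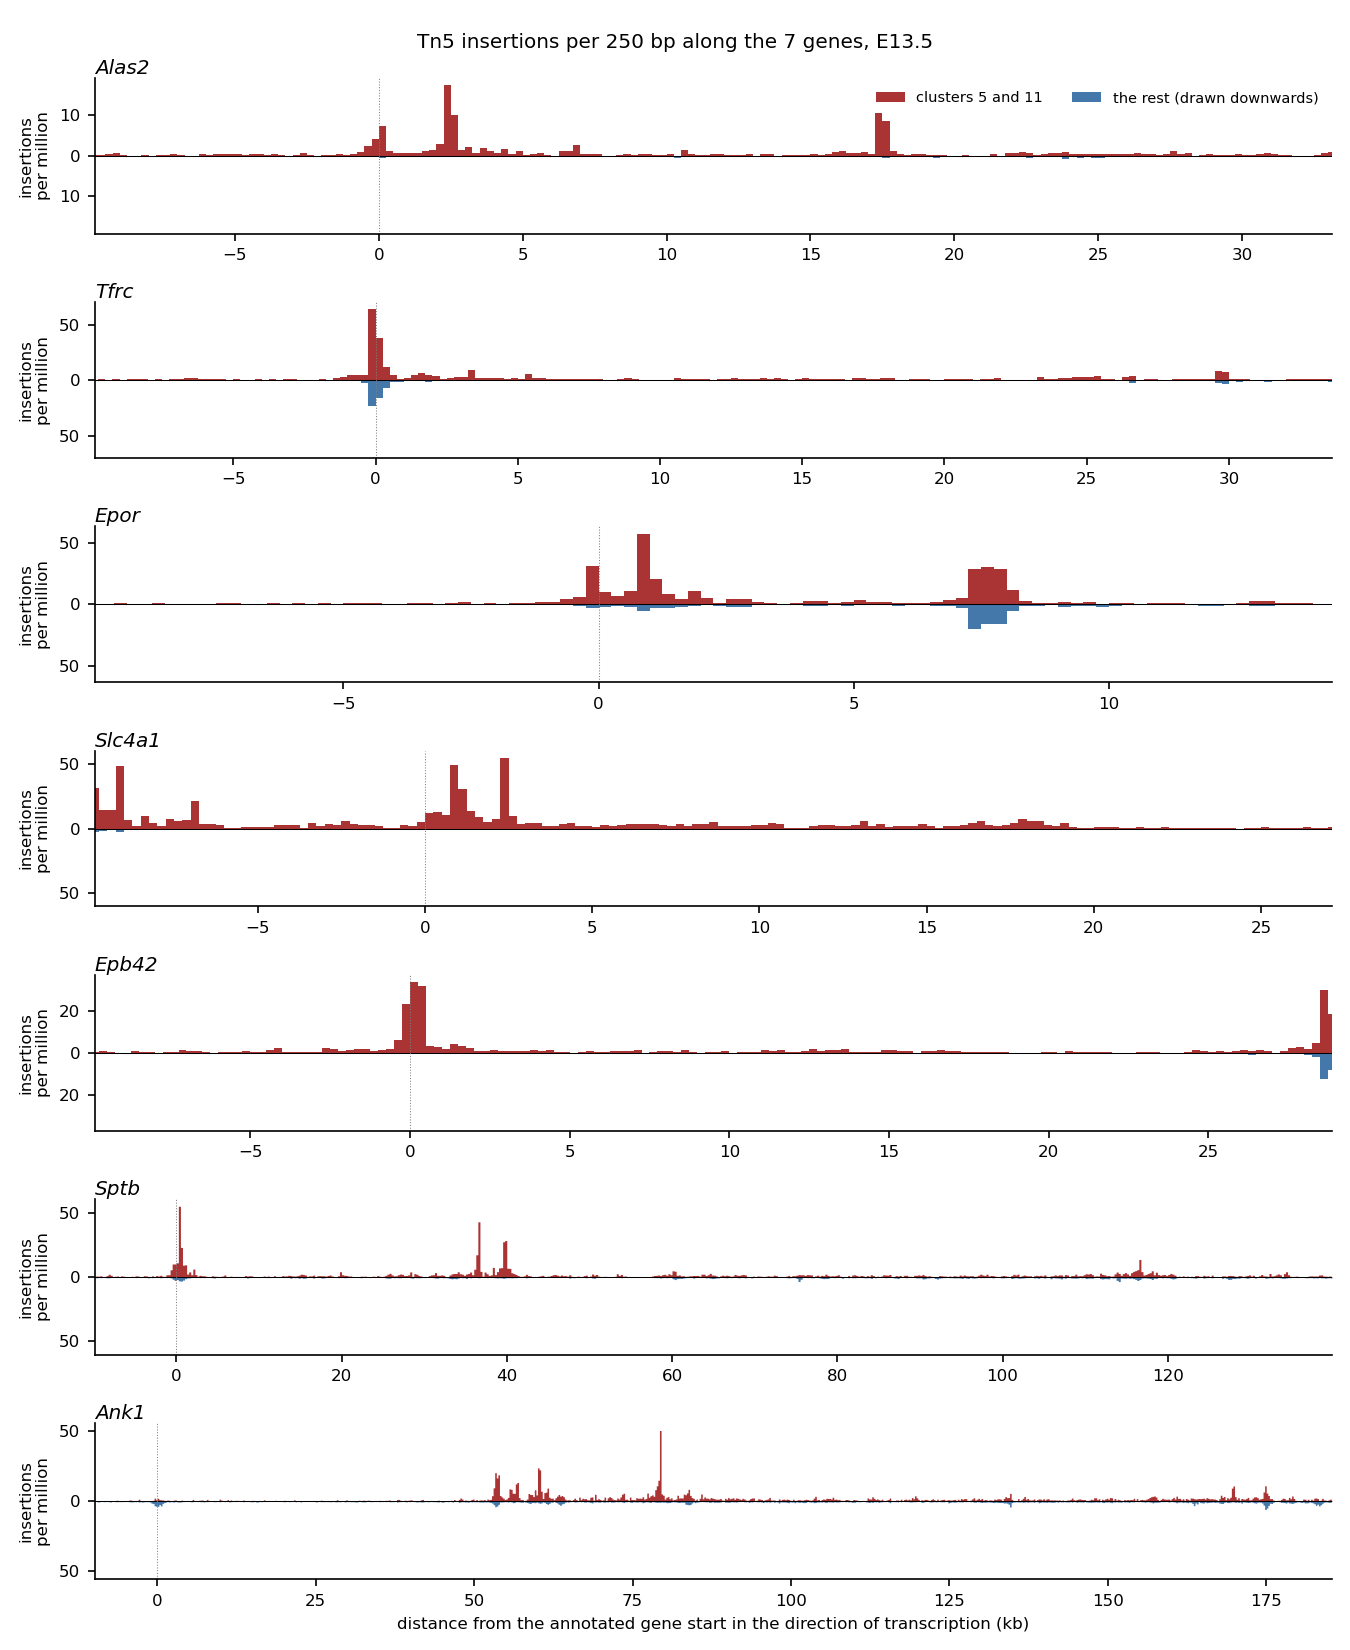
Tn5 insertions (CPM) in 250-bp bins (vertical axis) from 10 kb before each gene to 10 kb after it, by distance from the annotated gene start (horizontal axis, kb), at E13.5. Clusters 5 and 11 are drawn upwards and the rest downwards on the same scale, and the sites 79.35 kb into *Ank1*, 36.56 and 39.76 kb into *Sptb* and 17.45 kb into *Alas2* show almost no signal in the rest.

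Of the 21 windows, 3 for each gene, 10 were nearest to an annotated start of the gene within 1 kb, and 13 (61.9%) held a GATA match, against 29.8% of 32851 RefSeq promoters of 300 bases. CCNCNCCC was also in 13 of the 21, against 49.5% of promoters, and a CTG followed by 7 or 8 bases of any kind and then GATA, the spacing of a composite TAL1 and GATA1 site, was in 3 (14.3%), against 4.82%. Such a composite can share its GATA with a GATA match. The windows were picked for being open in clusters 5 and 11 and are not all promoters, so the shares are a description. The 5 windows with the smallest contrast at E13.5 had ratios of 1.84 to 2.91. They were the 3 of *Tfrc* and those 28.73 kb from the start of *Epb42* and 7.61 kb from the start of *Epor*. The latter 2, and the 1 of *Tfrc* that lies 29.75 kb from its start, were beyond the ends of these genes.

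Levels can be compared between genes only per length. At E13.5 clusters 5 and 11 had 15.2 CPM per kb at *Epor*, 10.1 at *Slc4a1*, 5.01 at *Tfrc*, 3.97 at *Epb42*, 3.47 at *Ank1*, 3.43 at *Sptb* and 2.22 at *Alas2*. The rest had 2.98 at *Epor*, 1.68 at *Tfrc*, 1.17 at *Slc4a1*, 1.14 at *Ank1*, 1.11 at *Sptb*, 0.559 at *Epb42* and 0.327 at *Alas2*. The counted span of *Epor* is 6.61 kb, the shortest, and that of *Ank1* 178 kb, the longest.

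**Figure D4:**
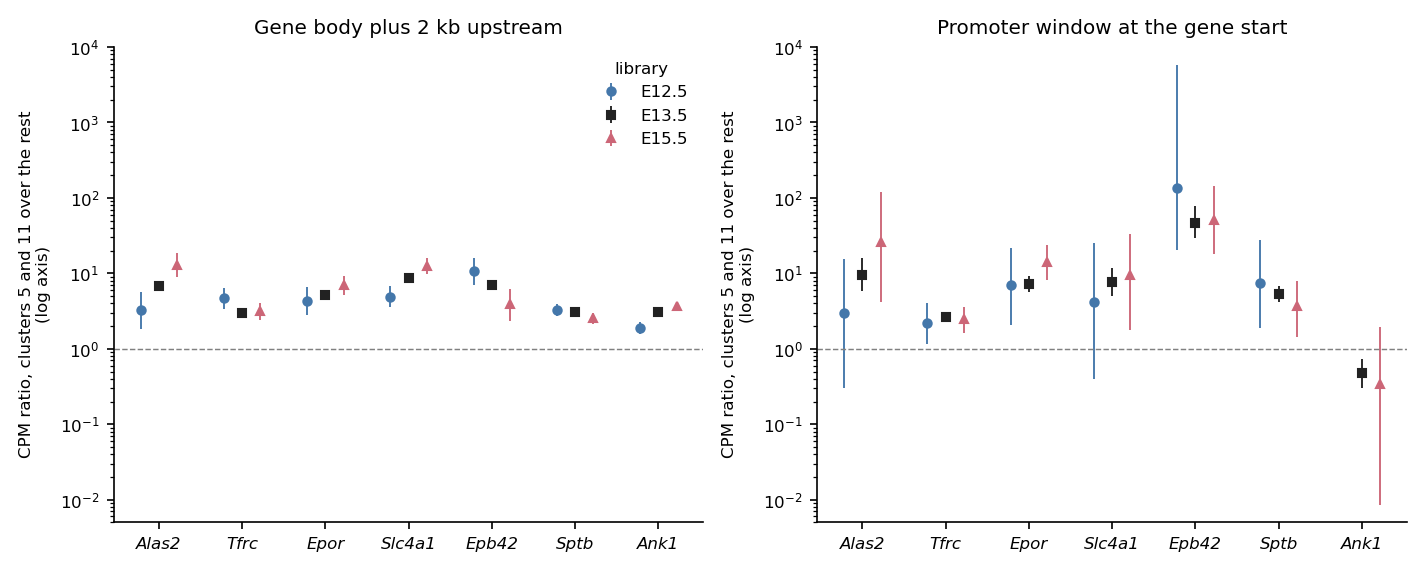
Ratio of CPM in clusters 5 and 11 to the rest (vertical log axis) for the 7 genes, over the gene body plus 2 kb (left) and the promoter window at the annotated gene start (right), for each library, with exact 95% intervals of a ratio of counts. On the left all points lie above 1, between 1.87 and 12.9. On the right *Epb42* is highest and the points of *Ank1* lie below 1, with none at E12.5, where clusters 5 and 11 had 0 fragments, and with an interval at E15.5 from 0.00854 to 1.92 that includes 1.

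Next, the genes were followed through the stages within cluster 5, which had 10, 166 and 10 nuclei. *Alas2* was 1.83-fold higher at E15.5 than at E13.5 (1.27 to 2.57), *Epor* 1.43-fold (1.05 to 1.91) and *Ank1* 1.33-fold (1.18 to 1.49), and *Ank1* was also 1.75-fold higher at E13.5 than at E12.5 (1.48 to 2.09). *Epb42* was lower at each step, at 0.666 of E12.5 at E13.5 (0.498 to 0.908) and from there to 0.539 at E15.5 (0.306 to 0.881). These values are for the whole gene. Its promoter in cluster 5 had 28.3, 29.9 and 22.6 CPM, with ratios of 1.06 (0.582 to 2.15) and 0.755 (0.322 to 1.51), whose intervals include 1. *Sptb* differed by less than counting error in both steps, with ratios of 1.06 (0.906 to 1.24) and 0.960 (0.813 to 1.13), and so did the whole genes of *Tfrc* and *Slc4a1* in each step, but *Slc4a1* was 1.597-fold higher at E15.5 than at E12.5 (1.12 to 2.29). The promoter of *Tfrc* in cluster 5 had 25.7, 50.4 and 70.5 CPM, and was 1.96-fold higher at E13.5 than at E12.5 (1.06 to 4.12) and 2.75-fold higher at E15.5 than at E12.5 (1.27 to 6.40). Its step from E13.5 to E15.5 was 1.40 (0.895 to 2.09), an interval that includes 1. In the rest this promoter was also higher than at E12.5, 1.30-fold at E13.5 (1.01 to 1.70) and 1.63-fold at E15.5 (1.27 to 2.14). The promoter of *Epor* in cluster 5 was 1.86-fold higher at E15.5 than at E13.5 (1.05 to 3.10). In the rest *Slc4a1* was at 0.737 (0.609 to 0.897) of E12.5 at E13.5, but at 0.901 (0.729 to 1.12) without cluster 10, and the next step was 0.726 (0.638 to 0.825), or 0.703 (0.613 to 0.805) without it. *Tfrc* there was 1.42-fold higher at E13.5 than at E12.5 (1.18 to 1.72) and *Alas2* was at 0.603 (0.451 to 0.820), while *Epb42* had 0.985 (0.731 to 1.35) and 0.932 (0.789 to 1.099). For *Alas2*, cluster 3 gave 36 of the 57 fragments of the rest at E12.5 and 80 of 248 at E13.5. A ratio without cluster 3 was not computed. All these ratios between stages compare single libraries and have no replicate check.

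The 2 clusters were not alike in these genes at E13.5, where cluster 11 had 35 nuclei. There *Slc4a1* was 2.28-fold higher in cluster 11 than in cluster 5 (1.95 to 2.65), *Epor* 1.86-fold (1.47 to 2.33) and *Tfrc* 1.73-fold (1.40 to 2.12). The whole genes of *Sptb* and *Ank1* were lower in cluster 11, at 0.663 (0.557 to 0.783) and 0.584 (0.498 to 0.679) of cluster 5. At its start 2, *Sptb* was higher in cluster 11 at E13.5, with 87.6 CPM (62.9 to 119) against 50.1 (45.5 to 55.0), and its promoter ratio at the gene start was 1.18 (0.556 to 2.23). At E15.5, with 7 nuclei in cluster 11, the whole genes were at 0.269 (0.127 to 0.509) and 0.186 (0.0977 to 0.323) of cluster 5, and cluster 11 had 119 CPM (57.2 to 219) of *Sptb* against 151 in the rest and 155 (82.6 to 265) of *Ank1* against 194. At E13.5 *Alas2*, at 1.23 (0.835 to 1.77), and *Epb42*, at 1.07 (0.765 to 1.46), did not differ beyond counting error. *Sptb* and *Ank1*, which were lower, are also the longest of the 7 genes, and the part of gene length was not tested.

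Single nuclei were then asked how many of the 7 genes they showed. After each nucleus was thinned to 10000 fragments, which left out 2, 17 and 1 nuclei of clusters 5 and 11 and 0, 6 and 15 of the rest, *Slc4a1* had a fragment in 66.7% (29.9 to 92.5%), 72.8% (65.8 to 79.1%) and 68.8% (41.3 to 89.0%) of nuclei of clusters 5 and 11, and in 11.1%, 7.97% and 5.13% of the rest. For *Alas2* the shares were 44.4%, 38.04% and 43.8% against 11.1%, 2.99% and 4.37%. At least 4 of the 7 genes had a fragment in 5 of 9, 132 of 184 (71.7%) and 13 of 16 nuclei, against 4 of 72, 10 of 602 (1.66%) and 10 of 526 (1.90%) in the rest. Without thinning, *Alas2* was seen in 67.7% and 20.7% of nuclei at E13.5, with medians of 49143 and 79786 fragments per nucleus. Over the 7 genes and 3 libraries, 9 of 21 shares in clusters 5 and 11 lay outside the interval of the thinned share when nuclei were not thinned, all of them above it. The DNA is present in every nucleus, and how much of the share in the rest is background was not tested.

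The pathway was read from lists that include the members. Of 23 heme genes, which cover the enzymes, mitochondrial carriers and breakdown, 18 were higher in clusters 5 and 11, 0 lower and 5 did not pass, with a median log2 fold change of 1.40 against -0.12 over all genes. Of all genes 9.06% were higher and 12.4% lower. Without *Alas2* the list had 17 higher of 22. Beside *Alas2*, the largest were *Tspo2*, at 3.28 ± 0.32 (SE), *Fech*, which inserts iron into the porphyrin ring, at 1.95 ± 0.20, and *Uros*, at 1.94 ± 0.25. Their promoters gave 16 higher and 1 lower of 22, against 11.98% and 21.5% of all promoters, the lower one being *Hmox1*, which breaks heme down, at -1.03 ± 0.38 (SE, adjusted p = 0.025).

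Of 21 genes of iron uptake and handling, 10 were higher, 0 lower and 11 did not pass, with a median of 0.68, or 9 higher of 20 without *Tfrc*, beside the same 9.06% and 12.4%. They were led by *Ncoa4*, the carrier of ferritin to the lysosome, at 1.91 ± 0.21 (SE), *Tfrc*, the endosomal iron transporter *Slc11a2*, at 1.57 ± 0.20, and the iron exporter *Slc40a1*, at 1.38 ± 0.30. At promoters 8 of 17 were higher, among them *Slc40a1* at 3.20 ± 0.54 and *Tfr2* at 2.82 ± 0.43, and 1 was lower, *Trf*, which encodes transferrin itself, at -2.12 ± 0.77 (SE, adjusted p = 0.021), where all promoters gave 11.98% and 21.5%.

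Of 30 membrane and skeleton genes, 26 were higher, 1 lower and 3 did not pass, with a median of 1.51, or 22 higher of 26 without the 4 members, beside 9.06% and 12.4% of all genes. *Kel*, a blood group protein, had 3.42 ± 0.40 (SE), and the lower one was the adhesion molecule *Bcam*, at -1.82 ± 0.41 (SE, adjusted p = 0.0063). Of their promoters, beside 11.98% higher and 21.5% lower of all promoters, 21 of 30 were higher, led by *Kel*, *Epb42*, *Ermap* at 5.12 ± 0.44 and *Rhag* at 4.54 ± 0.75, and 4 were lower, namely *Tpm1* at -2.03 ± 0.48, *Bcam* at -2.01 ± 0.74, *Add2* at -1.74 ± 0.68 and *Ank1*. Both *Tpm1* and *Add2* encode skeleton proteins that other tissues also use.

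Of 21 genes of erythropoietin signalling, 8 were higher and 2 lower, beside 9.06% and 12.4% of all genes, and 11 did not pass, with a median of 0.43, or 7 higher of 20 without *Epor*. Beside *Epor* the higher ones were led by *Osm*, a cytokine (1.74 ± 0.48, SE), the feedback inhibitor *Cish* (1.49 ± 0.23) and the survival gene *Bcl2l1* (1.39 ± 0.20), and the lower ones were the inhibitors *Socs1* (-1.17 ± 0.27) and *Socs2* (-1.002 ± 0.26). At promoters 4 were higher and 3 lower of 21, or 3 and 3 of 20 without *Epor*, close to the 11.98% and 21.5% of all promoters. Of 18 relatives of the members that other tissues use, 1 was higher, *Tfr2* at 1.30 ± 0.23 (SE), and 5 were lower, with a median of -0.42, beside 9.06% and 12.4% of all genes. The lower ones were led by *Slc4a3* (-1.996 ± 0.32), a relative of band 3, *Epb41l3* (-1.74 ± 0.23), a relative of protein 4.1, *Ghr* (-1.26 ± 0.22), a cytokine receptor like *Epor*, and *Slc4a4* (-0.87 ± 0.22). At their promoters 2 of 15 were higher and 7 lower, beside 11.98% and 21.5% of all promoters, with *Sptbn1*, the widely used beta spectrin, at -3.21 ± 0.38 (SE, adjusted p = 9.2e-15).

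**Figure D5:**
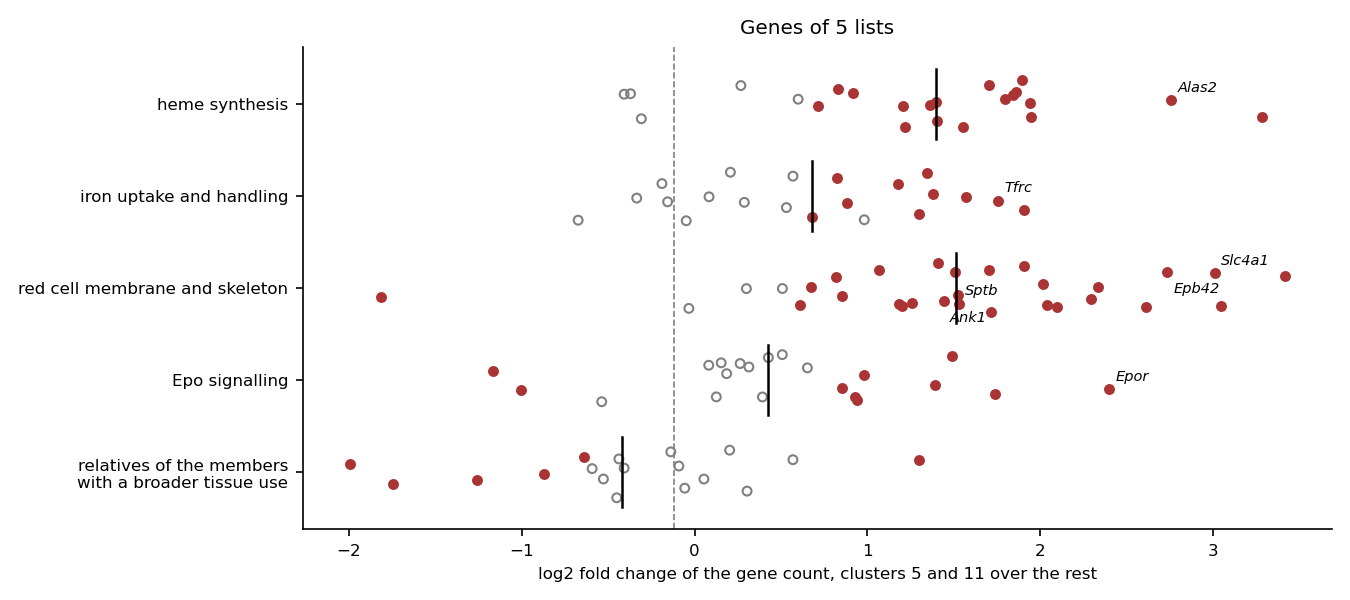
Log2 fold change of the gene count, clusters 5 and 11 over the rest (horizontal axis), for the genes of 5 lists, with filled points for genes at an adjusted p under 0.05, open points for the others, a black bar at the median of each list and a dashed line at the median of all genes. The medians run from 1.51 for the red cell membrane to -0.42 for the relatives with a broader tissue use.

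The genes most like each member were sought by Pearson's r of log2(CPM + 1), over 24 sums of cluster and library with at least 10 nuclei. Genes within 100 kb of the member were left out. They were *Vopp1* (0.922) and *Cpox* (0.918) for *Alas2*, *Reep6* (0.938) and *Brpf3* (0.930) for *Tfrc*, and *Tal1* (0.948) and *Zc3hav1* (0.940) for *Epor*. For *Slc4a1* the most like were *Samd7* (0.935) and *Fech* (0.913), for *Epb42* *Samd7* (0.901) and *Ninl* (0.890), for *Sptb* *Hbb-bt* (0.928) and *Ttc39a* (0.927), and for *Ank1* *Hectd4* (0.876) and *Slc25a37* (0.872). Between the members r ran from 0.563 for *Ank1* and *Tfrc* to 0.904 for *Slc4a1* and *Epor*. The sums share libraries and differ in depth, and erythroid sums hold the high end of each, so r is a description.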

How the data were processed

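Nuclei of E12.5, E13.5 and E15.5 embryos were profiled by snATAC-seq with 1 library per stage. The authors aligned reads to mm10 with Cell Ranger ATAC 2.0.0 and deposited fragment files, in which each line is a unique fragment with its count of read pairs, and a table of nuclei with cluster numbers. Seurat 4.1.0 and Signac 1.6.0 are named in the submitters' processing notes, and no source used here gives the clustering settings. In the table of nuclei, 20 columns were not used.

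Fragment counts were made here over 21593 protein-coding genes (GENCODE vM21, body plus 2 kb upstream, without 91 *Pcdh* and *Ugt* genes, 228 genes over 500 kb and 26 repeated symbols) and over promoters. The 3 files held 9402554, 87687839 and 53120243 fragments. The fits used edgeR 4.0.16 in R 4.3.3 with TMM scaling and filterByExpr, and DESeq2 1.42.0 was an alternative. The SE given with an edgeR log2 fold change is the size of that change divided by the square root of its F statistic. Windows of 300 bp, moved by 50 bp within 10 kb of the gene, counted both fragment ends. The fits were also run on simulated data, and the outcome is not reported here. Doublets were not called, and clusters 2 and 4 were left out. Stages have 1 library each and no test. Named genes were the members and, of each list, up to 4 called genes by size in each direction. The result of 1 gene of the lists is not reported here. Members and lists were chosen with earlier results of these data known. Sequences come from GRCm38.p6, the build of mm10. Of the 7 members, 5 have a RefSeq promoter (6 in all), each identical to the genome.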

Additional observations from a re-analysis of the deposited data

Results flagged for a closer look

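Cluster 11 over cluster 5 gave ratios on opposite sides of 1 at E13.5 and E15.5 for 5 members, and the difference between the stages was not tested. *Alas2* had 1.23 at E13.5 and 0.352 at E15.5, *Slc4a1* 2.28 and 0.529, *Epb42* 1.07 and 0.793, *Epor* 1.86 and 0.518, and *Tfrc* 1.73 and 0.680. Cluster 11 held 35 nuclei at E13.5 and 7 at E15.5, and the intervals of these 5 at E15.5 include 1. The other 2 members were below 1 in both libraries, with 0.269 (0.127 to 0.509) for *Sptb* and 0.186 (0.0977 to 0.323) for *Ank1* at E15.5.

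The left-out clusters 2 and 4, which the comparisons do not use, held 59 fragments at the 7 genes in 70 nuclei at E12.5, 533 in 161 nuclei at E13.5 and 274 in 198 nuclei at E15.5. In CPM, cluster 4 had 1009.8 (598 to 1596) of *Ank1* at E12.5, on 18 fragments, against 359.7 (303 to 424) in cluster 5. It was also above cluster 5 for *Alas2* at E12.5, *Epor* at E13.5 and *Epb42* at E15.5, on 1, 4 and 5 fragments, with overlapping intervals. In the other pairs of gene and library cluster 4 was below cluster 5, and cluster 2 was below it in all.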

How the results depend on the processing

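The number of genes called was 4191 and became 10789 with 1 sum per cluster and library, and it ran from 527 to 5493 when 1 library was left out. The number of promoters called was 4898, became 2275 in DESeq2, and ran from 788 to 4512 when 1 library was left out. The cause was not tested. With the promoter window alone in place of the whole gene, the ratio of *Ank1* reversed in the E13.5 library to 0.476 (0.300 to 0.727). The E15.5 library gave 0.340 on 1 fragment, with an interval (0.00854 to 1.92) that includes 1. Of 146 recomputed ratios, those without cluster 10 included, 22 more moved by over 1 SD of the libraries, and 122 did not. The promoter window alone gave 25.6 for *Alas2* at E15.5, 136, 46.3 and 51.3 for *Epb42*, 7.47, 5.31 and 3.66 for *Sptb*, 6.97, 7.23 and 14.3 for *Epor* and 2.22 for *Tfrc* at E12.5. Without that window *Epb42* had 2.15 at E15.5 and *Tfrc* 7.37 at E12.5. With the mean over nuclei *Slc4a1* had 9.17 and 14.0 in the first 2 libraries, *Ank1* had 2.91 at E12.5, and *Alas2*, within 1 SD, had 5.55 at E12.5 and 5.41 with read pairs. Without thinning, 9 of 21 shares of nuclei moved, all upward, such as *Epor* at E12.5 from 22.2% to 63.6% and *Epb42* at E13.5 from 47.3% to 76.6%. Of 91 refitted gene log2 fold changes of the members 90 kept direction and call, the other being *Ank1* without E13.5, and of 89 for promoters 82 did. With 1 sum per cluster and library the promoter of *Epb42* had 4.66 and that of *Ank1* -4.04, and without E13.5 that of *Ank1* had -2.78 (log2). Without the library as a replicate block 5714 genes and 7239 promoters were called. The small numbers of nuclei at E12.5 and E15.5 limit the precision there.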
